A study of Mus musculus with 12 samples.

Results

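The genes described here encode integrins, cadherins and the proteins of cell junctions. They were chosen by gene symbol as every spot with 1 symbol that starts with Itga, Itgb, Cdh and a digit, Pcdh, Cldn, Ctnn, Tjp, Icam, Nectin or Ncam, or that equals one of 7 names (Vcam1, Vcl, Jup, Dsp, Ocln, Pxn and Ilk). This gave 59 spots of 59 genes among 5030 spots, with 1 spot for each gene. They were 10 integrin alpha and 6 integrin beta subunits, 6 adhesion molecules of the immunoglobulin family, 12 cadherins, 4 protocadherins, 4 catenins, 10 claudins, 2 Tjp (zonula occludens) genes and 5 plaque or adaptor genes. Jup, Dsp and Pxn were not analysed here.

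The 12 one-colour spotted arrays carried total RNA from a pair of bone cell lines of the mouse, with 3 arrays in each of 4 groups. 2T3 is an osteoblast line from a mouse that carried the SV-40 T antigen behind a BMP-2 promoter, and its groups are called C0 and low. MLO-Y4 is an osteocyte line from a mouse with T antigen behind an osteocalcin promoter, and its groups are called low and high. Both lines therefore carry T antigen, and each cell type is represented by a single line, so that cell type, line and source mouse cannot be told apart. The labels set sparse against confluent osteoblasts, and osteocytes with against without gap junctions. C0 was read as confluent and high as the state with gap junctions only because the other group of each line is called low. Nothing in the labels says that the 3 arrays of a group came from separate cultures, so the p-values cover array-to-array spread only, and part of that spread may be technical.

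Integrins are receptors made of an alpha and a beta subunit that join matrix proteins outside the cell to actin inside it. Cadherins bind the same kind of cadherin on the next cell and hold actin through catenins, while claudins and zonula occludens proteins build tight junctions. In bone, osteoblasts are known for N-cadherin (Cdh2) and cadherin-11 (Cdh11), and for integrins with the beta 1 subunit. Osteocytes touch each other at the tips of long processes and hold their matrix through integrins.

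Levels are given as quantile-normalized spot intensity, with values under a floor of 6.08 set to that floor. A spot counted as above the detection limit on an array where its deposited intensity exceeded the size of that array's lowest value. Intensities of different spots depend on the probe and were not set against each other. Log2 differences come with the standard error (SE) of a limma fit of 4 group means over 12 arrays. Adjusted p means the Benjamini-Hochberg value over all 5030 spots, with 0.05 as the threshold.

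Signal was low for many of these genes. Of the 59, 10 were above the limit on all 12 arrays, 44 on some and 5 (Cdh20, Cldn11, Itga2b, Itga7 and Pcdha6) on none, and 43 were above it on at least 3 arrays. By line, 19 were above the limit on all 6 2T3 arrays and 12 on all 6 MLO-Y4 arrays. Total intensity per array ran from 212491 to 1680311 and median intensity from 4 to 55. Both lowest values belonged to 2T3 low replicate 3, where the highest deposited intensity was 6114. Normalization raised the values of that array, for example from 16 to 84.2 for Cdh2. The MLO-Y4 low and high arrays numbered 1 stood apart: 38.1% and 37.9% of their spots were above the limit, against 50.9% to 74.8% on the other arrays. Each of these arrays showed 13 of the 59 genes above the limit, where the other arrays showed 28 to 42. Together with 2T3 C0 replicate 1 and 2T3 low replicate 1 they had the lowest median Spearman correlation with the other arrays (0.663 to 0.682, against 0.748 to 0.788). Marker lists for the cell types were chosen with earlier results of these data known, so they describe the lines and are no independent check. Of 6 osteocyte markers measured, 5 were called higher in the osteocyte line (median log2 difference 2.46), while Phex was above the limit on no array. Of 10 osteoblast markers 2 were called lower there and 0 higher, with a median of -0.91. The median over all spots was -0.03.

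**Figure D1:**
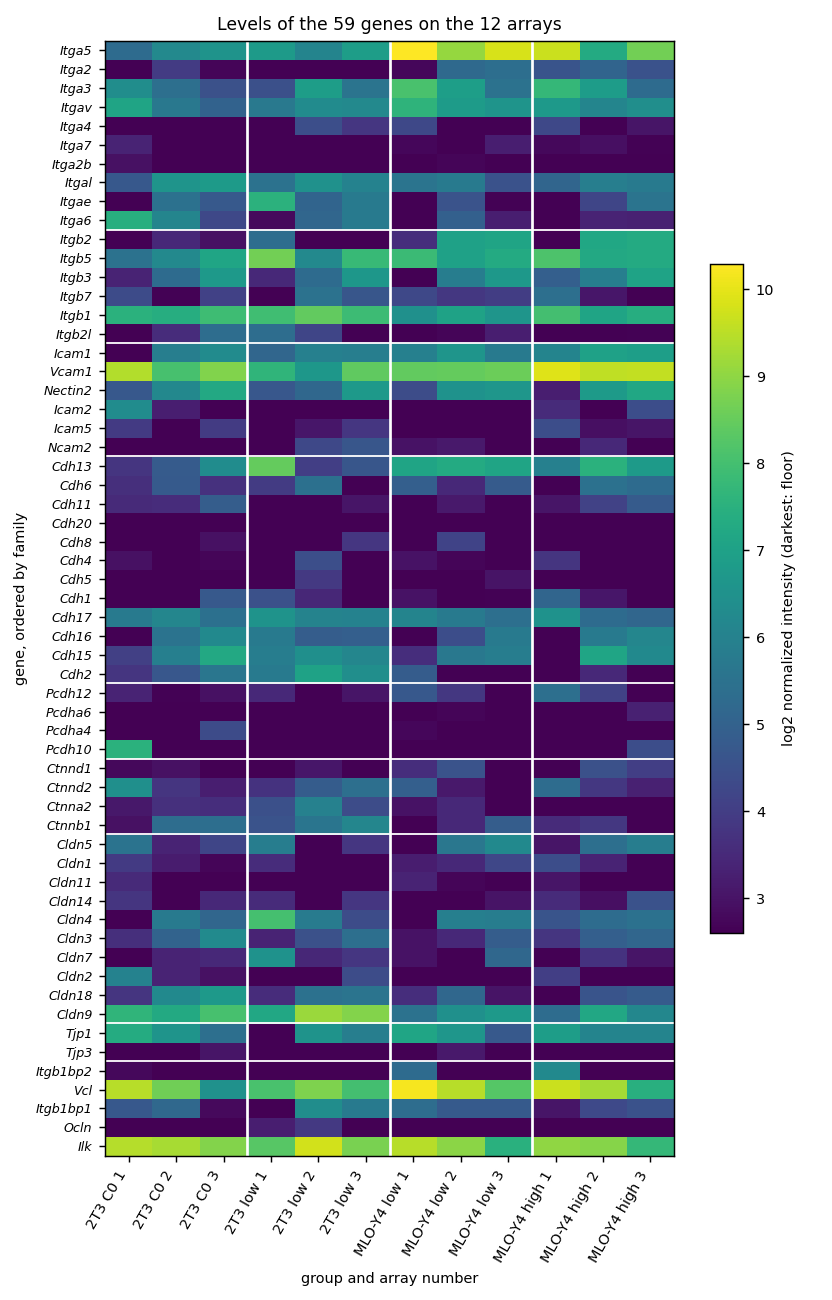
Log2 normalized intensity of the 59 genes (rows, ordered by family) on the 12 arrays (columns, by group and array number), with the darkest colour at the floor. Itga5 is brightest on the MLO-Y4 arrays, while Cdh2 and Ctnna2 are at or near the floor on most of these arrays, and many cadherin, protocadherin and claudin rows are dark throughout.

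The upstream windows of 3 of the genes that differed between the lines are shown first, since these are the sequences beside which the differences in transcript level stand. A window runs from 250 bases before to 50 bases after the annotated start, from RefSeq on GRCm38.p6, and 38 of the 59 genes matched at least 1 window (48 windows). The windows were matched by symbol only, and no genome build of the array is used here. Letters in capitals mark GC boxes (GGGCGG on either strand), the binding sequence of Sp1. The TATA box (TATAAA) and the AP-1 site (TGANTCA) were also searched on both strands and were not in these 3 windows.
Itga5, chr15:103366742-103367041, minus strand: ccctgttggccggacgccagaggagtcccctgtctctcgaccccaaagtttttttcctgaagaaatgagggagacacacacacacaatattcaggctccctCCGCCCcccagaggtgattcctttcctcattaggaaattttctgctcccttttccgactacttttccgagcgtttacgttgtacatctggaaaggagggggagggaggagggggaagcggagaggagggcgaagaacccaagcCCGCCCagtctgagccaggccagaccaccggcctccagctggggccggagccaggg
Itga2, chr13:114932051-114932350, minus strand: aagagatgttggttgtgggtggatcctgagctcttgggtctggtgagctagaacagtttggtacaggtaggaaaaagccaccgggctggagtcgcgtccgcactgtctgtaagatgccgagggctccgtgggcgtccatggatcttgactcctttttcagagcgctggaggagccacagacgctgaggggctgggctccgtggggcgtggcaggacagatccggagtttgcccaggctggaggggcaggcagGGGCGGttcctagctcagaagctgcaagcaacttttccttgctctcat
Ctnna2, chr6:77979618-77979917, minus strand: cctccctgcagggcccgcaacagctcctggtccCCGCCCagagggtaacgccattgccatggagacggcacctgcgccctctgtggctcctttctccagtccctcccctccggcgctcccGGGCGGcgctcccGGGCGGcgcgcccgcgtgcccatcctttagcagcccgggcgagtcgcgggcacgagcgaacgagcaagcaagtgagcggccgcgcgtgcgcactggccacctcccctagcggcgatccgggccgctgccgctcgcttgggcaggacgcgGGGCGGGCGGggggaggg
The Itga5 window held 2 GC boxes, the Itga2 window 1 and the Ctnna2 window 5, of which the last pair overlap. Of all 32851 RefSeq windows, 35.7% held a GC box, 13.6% a TATA box and 7.81% an AP-1 site, and of the 48 windows of the genes described here 31, 4 and 2 did. G and C made up 58.7%, 59.3% and 75.3% of the Itga5, Itga2 and Ctnna2 windows. A match describes letters only.

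The comparison of the lines asked which adhesion and junction genes set the osteocyte line apart from the osteoblast line over both densities. The fibronectin receptor subunit Itga5 was 7.13-fold higher in MLO-Y4, and the collagen receptor subunit Itga2 was also higher. N-cadherin (Cdh2) was lower and near background in MLO-Y4 (log2 difference -2.42), the alpha N-catenin gene Ctnna2 was lower, and the tight junction gene Cldn9 was 3.49-fold lower. These were 5 of the 59 genes, or 8.47%, against 9.30% of all spots called. Genes called higher were 2 against 5.83% of all spots, and genes called lower 3 against 3.48%. The share of calls was therefore close to that of the whole array. Arrays did not overlap between the lines for 1 gene higher in MLO-Y4 (Itga5), against 4.10% of all spots, and for 1 lower (Cldn9), against 1.75%. The median log2 difference over the 59 genes was -0.11, with 25 above 0 and 33 below it, against -0.03 over all spots. Without 1 array the count of calls ran from 2 (without 2T3 C0 replicate 3) to 5. Calls over all spots then ran from 354 to 462, against 468 with all arrays. Without the 4 arrays numbered 1, a choice made after seeing the data, 7 of the 59 genes were called, of which 5 were higher. Over all spots that choice gave 418 calls with 250 higher, in place of 468 with 293 higher. In bulk RNA, fewer cells that carry a transcript and less of it per cell cannot be told apart.

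Itga5 pairs with the beta 1 subunit to bind fibronectin. Its level was 39.0, 75.2 and 94.7 on the 2T3 C0 arrays and 111, 67.5 and 117 on the 2T3 low arrays. It was 1252, 538 and 904 on the MLO-Y4 low arrays and 825, 157 and 404 on the MLO-Y4 high arrays. Every MLO-Y4 array lay above every 2T3 array, and MLO-Y4 high replicate 2 was the lowest of that line. The log2 difference was 2.83 (SE 0.44, adjusted p = 0.00272 in limma), with a 95% interval of 1.86 to 3.80. All 12 arrays were above the limit. Without the 4 arrays numbered 1 the difference was 2.26 (adjusted p = 0.0403).

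Itga2, whose product binds collagen with beta 1, was near the floor in 2T3. It stood at 6.08, 15.5 and 6.58 in C0 and at the floor on all 3 low arrays. In MLO-Y4 it was 6.67, 37.7 and 41.3 at low and 24.1, 33.9 and 23.2 at high density. The 2 lines overlapped only through MLO-Y4 low replicate 1, and the gene exceeded the limit on 4 arrays of MLO-Y4 and 1 of 2T3. The log2 difference was 1.74 (SE 0.46, adjusted p = 0.0427 in limma). This call rested on few arrays: without a single array it was lost in 10 of 12 fits, with adjusted p up to 0.108 (without 2T3 C0 replicate 3), and it held only without 2T3 C0 replicate 2 and without MLO-Y4 low replicate 1. It was also lost with equal array medians (1.85, adjusted p = 0.0594), with detected-spot scaling (1.22, adjusted p = 0.233), with the higher floor (0.93, adjusted p = 0.0614) and with line and number as a random block (adjusted p = 0.0836).

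The other integrin alpha genes did not pass the threshold. The laminin receptor subunit Itga6 was at 172, 68.6 and 19.5 in 2T3 C0, 6.92, 35.0 and 53.3 in 2T3 low, 6.08, 31.0 and 9.50 in MLO-Y4 low, and 6.08, 10.3 and 9.92 in MLO-Y4 high. Its difference was -1.90 (SE 0.68, adjusted p = 0.130 in limma), it exceeded the limit on 6 arrays of 2T3 and 1 of MLO-Y4, and it passed with detected-spot scaling (-2.52, adjusted p = 0.00972). Under that scaling the median over all spots was -0.41 in place of -0.03. Itga3, another laminin receptor subunit, was at 1.20 (95% interval -0.20 to 2.59). The vitronectin receptor subunit Itgav was at 0.70 (-0.11 to 1.51). Both exceeded the limit on all 12 arrays. The leukocyte subunit Itgal was at -0.58 (SE 0.41), and Itgae, which binds E-cadherin on epithelia, at -1.50 (SE 0.71, adjusted p = 0.271).

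Of the 6 integrin beta genes none passed. The beta 1 subunit Itgb1, the partner given above for Itga5 and Itga2, had the smallest spread of the 10 genes above the limit on every array (SD 0.34 within groups, log2). It was 181, 168 and 238 in 2T3 C0, 246, 347 and 235 in 2T3 low, 87.9, 130.2 and 97.0 in MLO-Y4 low, and 254, 136 and 168 in MLO-Y4 high. The lines overlapped through MLO-Y4 high, and the difference was -0.75 (SE 0.24, adjusted p = 0.0896 in limma). It passed narrowly with the higher floor (adjusted p = 0.0466), with the offset (0.0485) and with array weights (0.0479). With equal array medians it was at 0.01, a scaling under which the median of spots above the limit on all arrays was 0.79 in place of 0.04. The vitronectin receptor partners Itgb3 and Itgb5 were at 0.36 (95% interval -1.59 to 2.32) and 0.55 (-0.44 to 1.55). Itgb2l, a gene related to Itgb2, exceeded the limit on 4 arrays of 2T3 and none of MLO-Y4, with measured means of 15.5 and 6.68 (adjusted p = 0.233).

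The leukocyte integrin subunit Itgb2, named after its values were seen, changed with the arrays used. It was 12.2, 127 and 136 in MLO-Y4 low and 6.08, 144 and 158 in MLO-Y4 high, the first value of each being the array numbered 1. In 2T3 it was 6.08, 11.3 and 7.75 in C0 and 41.2, 6.08 and 6.08 in low. Over all arrays the difference was 2.52 (SE 0.97, adjusted p = 0.161 in limma). Without the 4 arrays numbered 1, a choice made after seeing the data, it was 4.34 (SE 0.16, adjusted p = 0.0011), and without both MLO-Y4 arrays numbered 1 it was 3.67 (adjusted p = 0.00766). Of 14 blood cell markers measured, 1 was called higher in MLO-Y4 (Csf1r, log2 difference 0.99) and 1 lower (Tyrobp, -3.25). Csf1r was above the limit on 2 arrays of MLO-Y4 and 1 of 2T3, and Tyrobp on 1 and 6. Ptprc, the common leukocyte antigen, and Coro1a were above the limit on no array. The summed level of the 14 markers was 517 to 569 in 2T3 C0, 553 to 967 in 2T3 low, 235 to 346 in MLO-Y4 low and 179 to 748 in MLO-Y4 high.

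**Figure D2:**
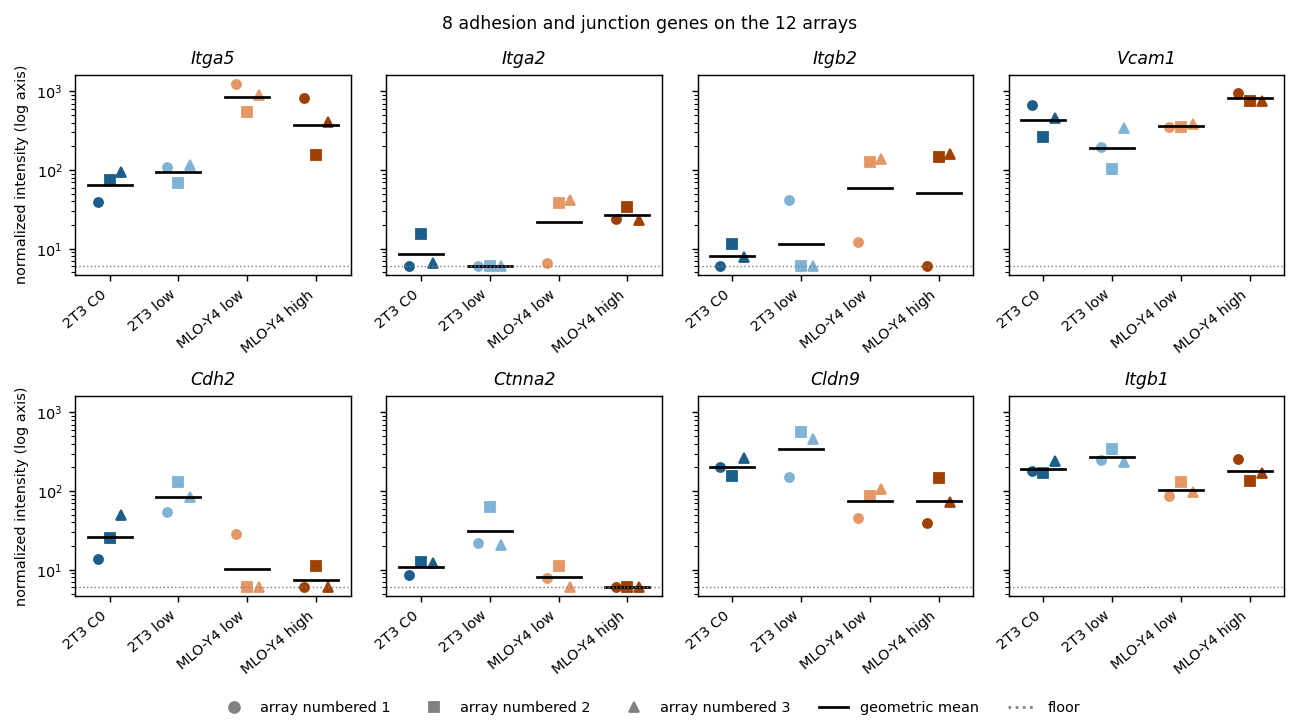
Normalized intensity (log axis) of 8 genes on the 12 arrays by group, with the array number as the marker, the geometric mean of a group as a bar and the floor of 6.08 as a dotted line. Itga5 separates the lines, Cdh2 and Ctnna2 sit at or near the floor on most MLO-Y4 arrays, and the arrays numbered 1 part from the others for Itgb2 in MLO-Y4.

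N-cadherin (Cdh2) exceeded the limit on all 6 arrays of 2T3 and on 1 of MLO-Y4, high replicate 2. It was 13.9, 25.8 and 49.1 in C0 and 54.5, 130.3 and 84.2 in low. In MLO-Y4 it was 28.5, 6.08 and 6.08 at low and 6.08, 11.3 and 6.08 at high density. The lines overlapped only because MLO-Y4 low replicate 1 lay above 2 of the C0 arrays. The difference was -2.42 (SE 0.49, adjusted p = 0.0109 in limma, 95% interval -3.50 to -1.34). Since most MLO-Y4 values lay at the floor, the size of the fold rests on background there. With the higher floor the difference was -1.57, with an offset of 50 in place of the floor -0.90, and without the 4 arrays numbered 1 it was -3.21.

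No other cadherin passed. The osteoblast cadherin Cdh11 was above the limit on 4 of 12 arrays, with levels from 6.08 to 29.5 in 2T3 and from 6.08 to 28.3 in MLO-Y4. Its difference between the lines was 0.02 (SE 0.36, 95% interval -0.79 to 0.82). T-cadherin (Cdh13), a cadherin tied to the membrane by a lipid anchor, was above the limit on all arrays. It ran from 62.2 to 184 in MLO-Y4 and from 13.9 to 80.4 in 2T3, apart from 354 on 2T3 low replicate 1. Its difference was 1.62 (SE 0.75, adjusted p = 0.254 in limma). Without the 4 arrays numbered 1, a choice made after seeing the data, it was 2.21 (adjusted p = 0.0441). E-cadherin (Cdh1) and the endothelial cadherin Cdh5 were above the limit on 3 and 1 of 12 arrays. Muscle cadherin Cdh15 (-0.75, SE 0.83), kidney cadherin Cdh16 (-0.45, SE 0.84) and the gut cadherin Cdh17 (-0.29, SE 0.29) showed signal in both lines with no call. The 4 protocadherins, which include the clustered genes Pcdha4 and Pcdha6, were above the limit on 0 to 4 arrays. Pcdh12 was at 0.87 (SE 0.50). Cdh20, above the limit nowhere, was at the floor on every array.

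Among the catenins, which link cadherins to actin, Ctnna2 was called. It was 8.58, 12.6 and 12.3 in 2T3 C0 and 22.2, 63.6 and 21.0 in 2T3 low. It was 7.92, 11.3 and 6.08 in MLO-Y4 low and at the floor on the 3 MLO-Y4 high arrays. It exceeded the limit on 4 arrays of 2T3 and none of MLO-Y4. Each MLO-Y4 array has a lowest level that counted as above the limit. The 2T3 mean of 18.5 did not exceed the average of these levels, so no fold is given. The measured means were 18.5 and 7.05 (fitted log2 difference -1.39, SE 0.32, adjusted p = 0.0209 in limma). Leaving out C0 replicate 2 ended the call (adjusted p = 0.0612), and so did leaving out C0 replicate 3 (adjusted p = 0.0581). It was also lost with the higher floor (-0.57, adjusted p = 0.270), with an offset (-0.45, adjusted p = 0.0742), without both MLO-Y4 arrays numbered 1 (adjusted p = 0.0841) and without the 4 arrays numbered 1 (adjusted p = 0.0932).

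Beta-catenin (Ctnnb1), which also carries Wnt signals, was 7.75, 40.8 and 41.6 in C0, 23.6, 48.4 and 70.1 in 2T3 low, 6.08, 11.3 and 29.3 in MLO-Y4 low, and 11.8, 14.4 and 6.08 in MLO-Y4 high. The ranges overlapped and the difference was -1.50 (SE 0.56, adjusted p = 0.147 in limma). It passed with detected-spot scaling (-2.17, adjusted p = 0.0375) and with array weights (-1.95, adjusted p = 0.0115). Detected-spot scaling put the median over all spots at -0.41 in place of -0.03. Ctnnd1, the p120 catenin, was above the limit on 2 MLO-Y4 arrays and no 2T3 array, with measured means of 12.6 and 6.81. Its measured fold had a bound of 1.19, which leaves out the spread between arrays. It was not called (adjusted p = 0.242 in limma), so a higher level in MLO-Y4 is not shown. Ctnnd2 was at -0.71 (SE 0.66).

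Claudins form the strands of tight junctions. Cldn9 was 201, 154 and 263 in 2T3 C0 and 149.5, 567 and 465 in 2T3 low, against 45.1, 87.8 and 107 in MLO-Y4 low and 39.8, 148 and 71.8 in MLO-Y4 high. The arrays of the lines did not overlap, though MLO-Y4 high replicate 2 at 148 lay close under 2T3 low replicate 1. The difference was -1.80 (SE 0.44, adjusted p = 0.0296 in limma). Its call was lost in 8 of 12 fits without 1 array, where adjusted p reached 0.0753 (without 2T3 C0 replicate 3). It held without 2T3 C0 replicate 2, 2T3 low replicate 1, MLO-Y4 low replicate 3 and MLO-Y4 high replicate 2. It was lost with equal array medians (-1.40, adjusted p = 0.143), without both MLO-Y4 arrays numbered 1 (-1.35, adjusted p = 0.112) and with the random block (adjusted p = 0.0542). The other 9 claudins did not pass, with differences from -1.27 (Cldn18) to 0.58 (Cldn5). Over all arrays Cldn5 had an SE of 0.83 and adjusted p = 0.770 in limma. Without the 4 arrays numbered 1, a choice made after seeing the data, it was at 2.40 (adjusted p = 0.0335). Of 8 measured epithelial markers 0 were called in limma. Their summed level was 361 to 2660 in 2T3 C0, 1036 to 1753 in 2T3 low, 176 to 1108 in MLO-Y4 low and 218 to 1196 in MLO-Y4 high, and their part in the Cldn9 difference was not tested.

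The tight junction scaffold Tjp1 was 162, 95.9 and 42.2 in C0, 6.08, 94.2 and 58.9 in 2T3 low, 139.5, 99.0 and 26.7 in MLO-Y4 low, and 119, 68.0 and 67.6 in MLO-Y4 high. The difference was 0.53 (SE 0.71), with a 95% interval of -1.05 to 2.12. Tjp3 was above the limit on 1 array and occludin (Ocln) on 2. Vinculin (Vcl), which joins both integrin and cadherin complexes to actin, was at 0.80 (95% interval -0.52 to 2.13), and the integrin-linked kinase gene Ilk at -0.48 (-1.41 to 0.45). The 2 genes were above the limit on every array. Itgb1bp1, whose product binds the tail of beta 1, was at -0.11 (SE 0.67). Among the adhesion molecules, Icam1, a ligand of leukocyte integrins, was at 1.08 (95% interval -0.22 to 2.39). Vcam1, the ligand of the integrin with the alpha 4 subunit, was at 0.93 (SE 0.33, adjusted p = 0.129 in limma), and it passed with equal array medians (1.80, adjusted p = 0.0351). Under that scaling the median of spots above the limit on all arrays was 0.79 in place of 0.04. Itga4 itself was above the limit on 1 of 12 arrays. Of 9 endothelial markers, 1 was called higher in MLO-Y4 (Eng, log2 difference 4.98) and 0 lower, with a median of -0.46. Their summed level was 318 to 655 in 2T3 C0, 314 to 521 in 2T3 low, 666 to 978 in MLO-Y4 low and 881 to 1338 in MLO-Y4 high, and their part in the Icam1 and Vcam1 values was not tested.

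**Figure D3:**
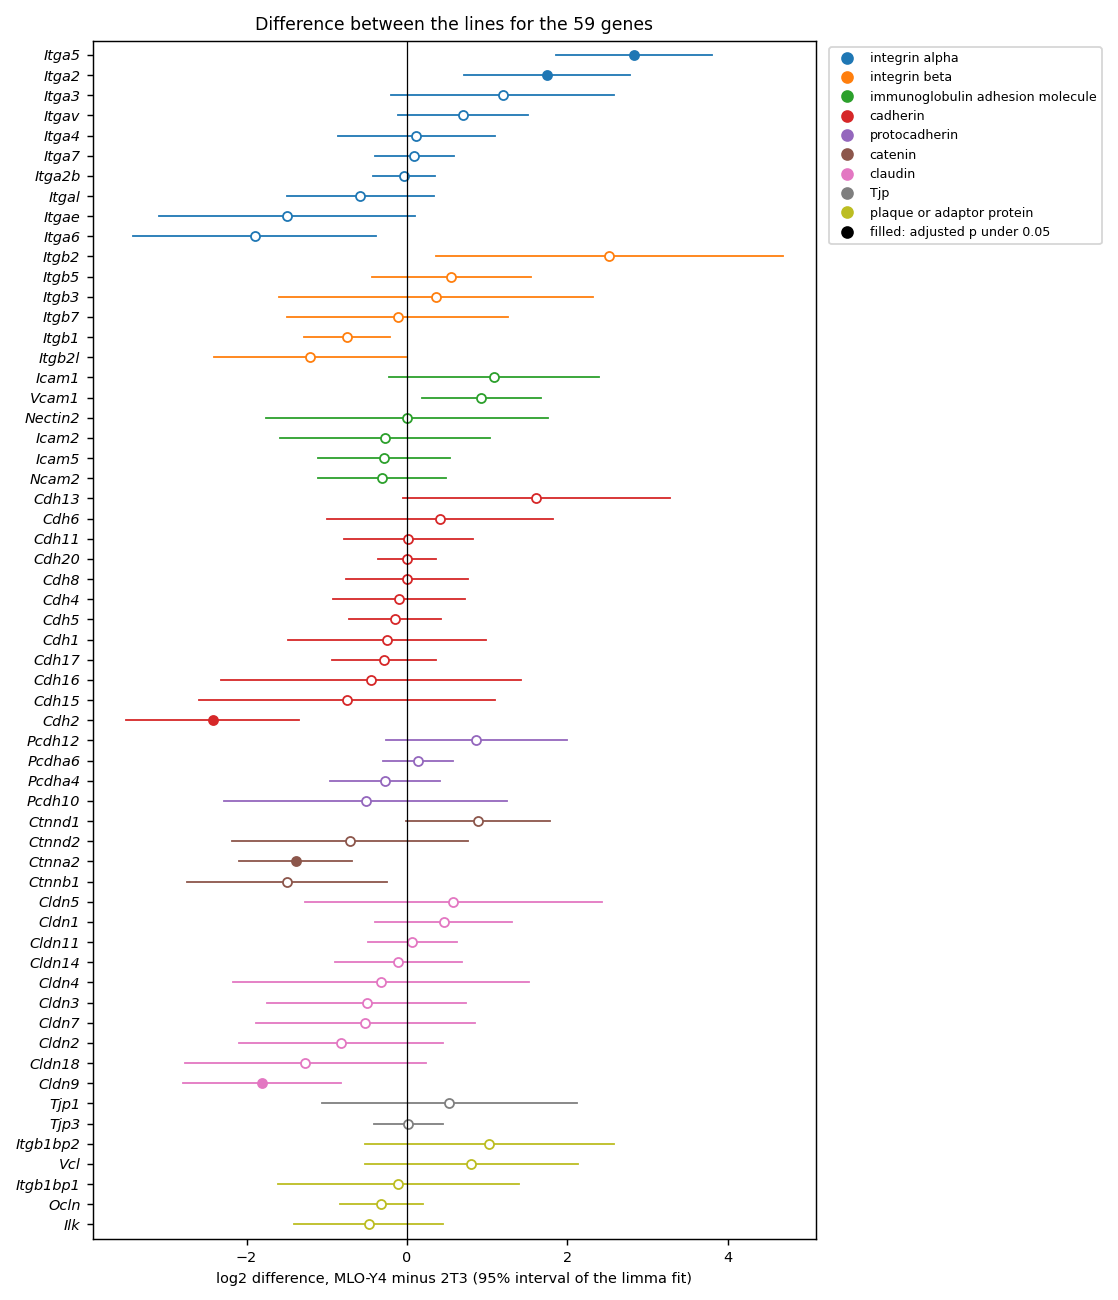
Log2 difference of MLO-Y4 minus 2T3 for the 59 genes by family, with the 95% interval of the limma fit as a line and filled points for adjusted p under 0.05. Itga5 and Itga2 lie to the right and Cdh2, Ctnna2 and Cldn9 to the left, and most other intervals cross 0.

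Genes around these families were described from lists chosen with earlier results of these data known, and their calls are to be read against 5.83% of all spots called higher and 3.48% called lower. Of 33 measured spots for integrin ligands and matricellular proteins, 5 were higher in MLO-Y4 and 1 lower, with a median of 0.26 against -0.03 over all spots. Those with the smallest p were the laminin chain gene Lama5 (log2 5.01), Adam23 (5.48), the thrombospondin gene Thbs1 (3.18, SE 0.42) and Fbln1 (3.60). In 2T3, Lama5 and Fbln1 exceeded the limit on 1 array each and Adam23 on 2, so the sizes of these 3 differences rest on background there. Nid2, a basement membrane linker named after its values were seen, was lower (-3.33). Of 27 surface partners, 5 were higher and 0 lower (median 0.49): the urokinase receptor gene Plaur (3.01, SE 0.52), the tetraspanin gene Cd82 (2.01, SE 0.35), Sdc1, Sdc4 and Cd44. Of 24 spots for focal adhesion adaptors and kinases, 1 was higher, Zyx (2.21, SE 0.47), and 2 were lower, Evl (-4.03, SE 0.60) and Actn3 (-1.24, above the limit on 1 array of MLO-Y4), with a median of 0.12. Of 31 catenin partners and junction scaffolds, 0 were higher and 2 lower, Rdx (-1.65) and Tiam1, which was above the limit on 4 arrays of 2T3 and none of MLO-Y4, with a median of -0.24. The 4 measured gap junction genes (Gja3, Gja10, Gjb6 and Gjd2) gave 0 calls in limma and 0 with an unadjusted p under 0.05. They were above the limit on only 2, 5, 3 and 6 of 12 arrays, in that order, so a difference could be missed.

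The density comparisons asked whether the same genes differed between sparse and dense cultures of a line. In 2T3, 0 of 5030 spots passed in limma (0.00% of all spots), so 0 of the 59 genes did. At an unadjusted p under 0.05 there were 266 spots and 5 of the 59. In MLO-Y4 the counts were 0 (0.00%), with 116 spots and 3 of the 59 at an unadjusted p under 0.05. The difference between the density effects of the lines also gave 0 calls (0.00%), with 145 spots and 1 of the 59 at an unadjusted p under 0.05. The values below therefore describe genes that did not pass.

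In 2T3 the genes with the smallest unadjusted p were Vcam1, Cdh11 and Icam2 among those higher in C0, and Ctnna2, Cdh2 and Ncam2 among those lower. Some others had larger differences but larger p, such as Pcdh10 (1.63, SE 1.12). Vcam1 was 677, 263 and 455 in C0 and 197, 102 and 338 in low, with overlap through the values of 263 and 338. Its log2 difference was 1.19 (SE 0.47, adjusted p = 0.929 in limma, unadjusted p = 0.0295). Cdh11 was at 1.25 (SE 0.51, adjusted p = 0.929 in limma), above the limit on 2 C0 arrays and no low array. Its measured fold had a bound of 1.34, which leaves out the spread between arrays. Icam2 was at 1.46 (SE 0.83), with 81.2 on C0 replicate 1 and no more than 9.58 on the other arrays of 2T3. As the low group was below the limit, the measured fold of Icam2 had a bound of 1.41, which also leaves out that spread. Ctnna2 was at -1.49 (SE 0.45) and Cdh2 at -1.70 (SE 0.69), both without overlap between the groups and with adjusted p = 0.929. The neural adhesion gene Ncam2, at -1.23 (SE 0.51), was above the limit on 2 low arrays and no C0 array. The same kind of bound was 1.53-fold lower in C0. Arrays did not overlap for 1 gene higher in C0 (Cdh11) against 4.87% of all spots, and for 2 lower against 4.17%.

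In MLO-Y4 the same order was seen for Vcam1 and Cdh11. Vcam1 was 352, 354 and 379 at low and 964, 756 and 764 at high density, a difference of 1.19 (SE 0.47, adjusted p = 1 in limma, unadjusted p = 0.0300). The groups did not overlap. Cdh11 was at 1.22 (SE 0.51), above the limit on 2 high arrays and no low array, with measured means of 16.0 and 6.89 that allow no fold above the limit. Itgb1 was at 0.79 (SE 0.34, unadjusted p = 0.0411 in limma), with no overlap between 130.2 at low and 136 at high density. Of the genes lower at high density, Itga5 had the smallest p, at -1.18 (SE 0.62, 95% interval -2.55 to 0.19), followed in order of p by Itgav (-0.58, SE 0.51) and Cdh8, which exceeded the limit on 1 low array and no high array (fitted difference -0.52, SE 0.48). Arrays did not overlap for 3 genes higher at high density (Vcam1, Itgb1 and Icam5) against 2.41% of all spots, and for 1 lower (Itgb1bp1) against 2.11%. Icam5 was above the limit on no MLO-Y4 array.

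Same-numbered arrays of MLO-Y4 deviated together, so the pairs can be read one by one. Vcam1 was higher at high density in each of 3 pairs, by 2.74-, 2.14- and 2.01-fold. Itgb1 was higher by 2.89-, 1.04- and 1.73-fold, and Itga5 was lower by 1.52-, 3.44- and 2.24-fold. All 3 pairs were higher for 10 of the 59 genes (16.9%, against 9.60% of all spots) and lower for 5 (8.47%, against 9.96%). With the number as a block, 0 genes passed in limma (156 spots and 5 of the 59 at an unadjusted p under 0.05), and Vcam1 was at 1.19 (SE 0.35, unadjusted p = 0.0150). The unadjusted p with the block was 0.0325 for Itga5, 0.0298 for Cdh11 and 0.0912 for Itgb1, and adjusted p was 1 for each.

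The density effect of Vcam1 differed between the lines by 0.00 (SE 0.66), with a 95% interval of -1.49 to 1.48. For Cdh11 the difference was -0.03 (-1.64 to 1.57). For Itgb1 it was 1.28 (SE 0.48, unadjusted p = 0.0232 in limma, adjusted p = 1), since its level was lower in C0 than in low in 2T3 (-0.49) and higher at high density in MLO-Y4. Itgae (2.70, SE 1.43) and Ncam2 (1.23, SE 0.72) were next by p on that side, and Itga6 (-1.89, SE 1.36), Pcdha4 (-0.63, SE 0.62) and Cldn11 (-0.46, SE 0.50) on the other. For Cdh2 the difference was 1.25 (-0.91 to 3.41), for Itga5 -0.63 (-2.57 to 1.31) and for Tjp1 -1.24 (-4.41 to 1.93). The intervals are wide, so an equal response of the lines is not shown.

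**Figure D4:**
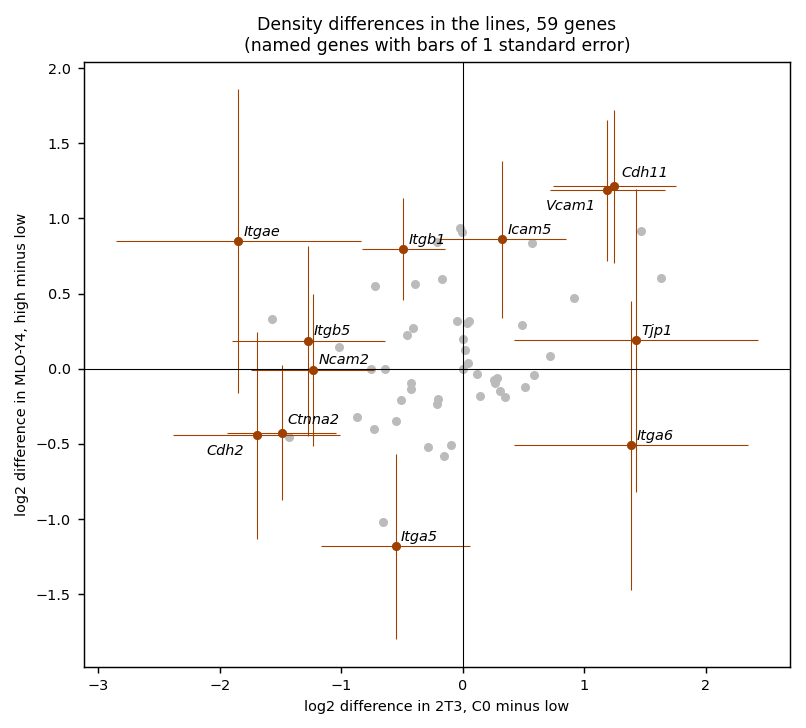
Log2 difference of C0 minus low in 2T3 (x axis) against high minus low in MLO-Y4 (y axis) for the 59 genes, with bars of 1 standard error for 12 named genes. Vcam1 and Cdh11 lie near 1.2 on both axes, Itga5 and Cdh2 are below 0 on both, and Itgb1 is below 0 in 2T3 and above it in MLO-Y4; none passed the threshold.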

How the data were processed

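The deposited values are background-subtracted linear spot intensities, read as intensity from whole numbers that go below 0. The authors' image software, background method and normalization were not given in the sources used here. Of 5030 spots, 4633 had 1 gene symbol in the platform annotation, 5 had several and 392 were unnamed. For 4624 spots the Entrez identifier gave the current symbol. Arrays were quantile-normalized, values were floored at the 25th percentile (6.08) and log2 was taken. Quantile normalization was preferred to equal array medians, since medians lay near background on several arrays. limma 3.58.1 in R 4.3.3 fitted 4 group means over 12 arrays (8 residual degrees of freedom), with eBayes, two-sided tests and Benjamini-Hochberg adjustment over all spots. The fit was tested on simulated line differences of known size, put into spots well above the floor. It recovered 5 of 50 changed spots at log2 1, 20 at 2, 37 at 3 and 48 at 4. Of 4830 unchanged spots, 10 were called. Density differences were not simulated. The number of arrays limits the precision.

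Alternatives were equal array medians, detected-spot scaling (equal medians over the 1253 spots above the limit on all 12 arrays), a floor at the 40th percentile (14.1), an offset of 50 in place of the floor, a filter on spots above the limit on at least 3 arrays, array weights, a replicate block, a random block of line and number, and leaving out arrays. A fold against a group below the limit on every array is a bound, taken against the lowest normalized level above the limit on each of its arrays. Such a bound leaves out the spread between arrays.

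Numbers were taken to pair arrays where deviations from group means correlated over 0.1 for every number. They did in MLO-Y4 low and high (0.625, 0.475 and 0.505) and between 2T3 C0 and either MLO-Y4 group (0.276 to 0.526), but not between the 2T3 groups (0.0388, 0.0645 and 0.152). The members and gene lists were chosen with earlier results of these data known. Genes were named by rule: all calls, Itga5, Cdh2, Cdh11 and Tjp1, the 3 smallest p in each direction of each comparison, 1 spot of each family (the one with the highest mean intensity, used only to choose a name), and up to 4 called genes with the smallest p from each other list. Further members were named to account for their families, after their values were seen.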

Additional observations from a re-analysis of the deposited data

How the results depend on the processing

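Itga5 and Cdh2 kept their direction and passed the threshold in limma under all 22 alternatives, the 12 fits without 1 array included. Without 1 array, adjusted p ran from 0.00114 to 0.0093 for Itga5 and from 0.00352 to 0.0304 for Cdh2. The 5 genes called between the lines became 3 with line and number as a random replicate block (consensus correlation 0.238), 10 with array weights, and 2 to 5 in the fits without 1 array (2 without 2T3 C0 replicate 3, and 3 without 2T3 low replicate 2, 2T3 low replicate 3, MLO-Y4 low replicate 2 or MLO-Y4 high replicate 3). The replicate block gave the same count of 5 and ended no call of these genes. Over all spots, 468 calls between the lines became 372 with the random block, 584 with the replicate block and 764 with array weights. They ran from 354 to 462 in the fits without 1 array. Counts for the 59 genes and for all spots thus both fell with the random block and both rose with array weights. Between the 2T3 densities, 0 calls over all spots became 3 with the higher floor. In the 3 density comparisons 0 of the 59 genes passed under any alternative. Of all calls between the lines, 62.6% were higher in MLO-Y4 with quantile normalization, 81.5% with equal array medians and 43.8% with detected-spot scaling. For the 59 genes the counts higher and lower were 2 and 3, 2 and 2, and 1 and 5. The median over all spots was -0.03, 0.11 and -0.41 under these scalings. Spots above the limit on all arrays lay at 0.04, 0.79 and -0.07, so Itga5 at 2.83, 3.68 and 2.83 and Cdh2 at -2.42, -2.57 and -3.13 stood beyond those shifts. For 49 of the 59 genes some arrays were below the limit, which limits the size of their differences.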

Other observations

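Within groups, several of these genes followed the array number. In 2T3 C0, MLO-Y4 low and MLO-Y4 high alike, the array numbered 1 was highest and the one numbered 3 lowest for 5 of the 59 genes (Vcl, Itga3, Tjp1, Ctnnd2 and Ilk), and the reverse held for 4 (Nectin2, Itgb3, Cdh16 and Cldn3). The same order of numbers in all 3 groups was seen for 9 of the 59 genes (15.3%), against 10.4% of all spots. Vinculin (Vcl) was 712, 397 and 90.4 in 2T3 C0, 1174, 706 and 306 in MLO-Y4 low, and 825, 615 and 174 in MLO-Y4 high. Itga3 was 82.1, 42.7 and 22.8, then 269, 120.2 and 45.2, then 213, 115 and 39.2 in the same groups. Itgb3, the beta 3 subunit of the vitronectin receptor, ran the other way, at 10.4, 39.0 and 108, then 6.08, 58.1 and 103, then 30.8, 58.9 and 134. The 2T3 low arrays were at 11.2, 39.0 and 102 for Itgb3 but at 271, 449.8 and 254 for Vcl. What a number marks is not given in the labels, and its part in these levels was not tested.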
